A study of Mus musculus with 4 samples.

Results

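Mast cell genes, 10 in number, are described here, chosen by name: Hdc, Cpa3, Mcpt4, Cma1, Tpsb2, Tpsab1, Kit, Ms4a2, Fcer1a and Gata2. All 10 were found among the 55335 genes of the count tables. They were measured in 4 RNA-seq libraries of cells labelled as CD4+ T cells, taken from the dorsal skin of mice 8 to 12 weeks old. Of these, 2 came from Mettl3fl/fl;Cd4-Cre mice, which carry floxed alleles of the RNA methyltransferase gene Mettl3 and a Cre recombinase under the Cd4 promoter, active in developing T cells. The other 2 came from Mettl3fl/fl mice, with the floxed alleles and no Cre. All mice had received 5% imiquimod cream, an agonist of Toll-like receptor 7 that gives the skin a psoriasis-like inflammation, on the back for 5 days, in amounts of 15 or 62.5 mg a day that the labels do not assign to single mice. The libraries are called Cre 1, Cre 2, control 1 and control 2. How many mice lie behind each is not known here, so the spread between libraries may be technical.

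Mast cells are resident leukocytes of connective tissue that lie in the dermis near vessels and nerves. Their granules hold histamine, heparin and serine proteases, which are released when antigen crosslinks IgE on the high-affinity receptor. Their survival depends on the receptor tyrosine kinase Kit and its ligand, and GATA2 is a transcription factor needed for their development. Mast cells do not belong to the T cell lineage, which the labels name. Which cells the counted fragments of these genes came from was not tested. In bulk RNA, more cells of a type and more RNA per cell cannot be told apart.

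How well each gene could be counted differed, because fragments were counted per annotated exon entry and, with few exceptions, were lost where transcripts of the annotation overlap. Of the 206 exon entries of the 10 genes, 50 had bases covered by no other entry, and 31 held at least 1 fragment. Mcpt4 has a single annotated transcript, and 100% of its 1108 exonic bases could be counted. For Cpa3 the share was 78.2% of 1517 bases and for Hdc 77.2% of 6389. Of the 4931 countable bases of Hdc, however, 1380 and 1984 lie in entries of retained-intron transcripts. Its coding entry at the 3′ end kept 917. The share was 52.7% for Tpsab1, 32.2% for Tpsb2, 17.2% for Fcer1a and 1.47% for Cma1, which kept 16 countable bases. Cma1, another chymase of connective tissue mast cells (chromosome 14, 55941451 to 55944675), held 1 fragment, in Cre 2, in all 4 libraries together, and with so few countable bases this gives no measure of its level.

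The tryptases Tpsb2 and Tpsab1 lie close to each other on chromosome 17, and their similarity decides whether fragments can be assigned to one of them. Their coding sequences were identical at 76.1% of aligned bases, with a longest identical run of 39 bases. No window of 50 bases of either transcript occurred in a transcript of another gene. Most fragments of each gene were counted in a long exon entry that other coding exon entries overlap, and its countable bases, 208 in Tpsb2 and 903 in Tpsab1, lie outside those. The tryptase counts may therefore hold sequence between the other coding exon entries. Where the fragments lie within the long entries was not examined. The 90 coding bases that differ most between the genes (41 positions, in capitals) are shown to let the transcripts be told apart by eye, and lie in overlapped sequence that was itself not countable. They come from GENCODE M21 transcripts on GRCm38, at chr17:25367049-25367138 on the plus strand for Tpsb2 and chr17:25344824-25344913 on the minus strand for Tpsab1.
Tpsb2: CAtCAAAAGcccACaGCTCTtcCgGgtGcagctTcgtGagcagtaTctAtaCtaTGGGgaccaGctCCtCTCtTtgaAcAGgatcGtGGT
Tpsab1: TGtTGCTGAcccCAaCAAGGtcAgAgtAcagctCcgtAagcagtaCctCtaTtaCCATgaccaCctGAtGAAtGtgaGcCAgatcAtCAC
Of windows of 50 bases, 5.48% in Mcpt4 also occurred in Cma2 or Mcpt9, 5.38% in Cma1 in Gm48934 and 2.69% in Ms4a2 in Ms4a4b, so a small part of these genes cannot be assigned. Such windows were absent from the other 7 genes.

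Promoter sequence was found in RefSeq (GRCm38.p6) for 8 of the 10 genes, not for Tpsb2 and Tpsab1. The 250 bases before the start were searched on both strands for AGATAA and TGATAA, forms of the site that GATA factors bind. Both end in GATAA, so a position can match only one of them, and 16.6% of 32851 promoter windows of this length held at least 1 of them. That share is per window, whereas the members were counted per gene. Kit and Gata2 had more than 1 window each, none with a match. Among the mast cell genes 4 of 8 held a match, namely Cpa3, Mcpt4, Ms4a2 and Fcer1a. Their windows are shown because GATA2 itself is among the genes measured, with the matches in capitals, read along the gene. They lie on the minus strand at chr3:20242182-20242431 for Cpa3, chr14:56062311-56062560 for Mcpt4, chr19:11623720-11623969 for Ms4a2 and chr1:173227230-173227479 for Fcer1a.
Cpa3: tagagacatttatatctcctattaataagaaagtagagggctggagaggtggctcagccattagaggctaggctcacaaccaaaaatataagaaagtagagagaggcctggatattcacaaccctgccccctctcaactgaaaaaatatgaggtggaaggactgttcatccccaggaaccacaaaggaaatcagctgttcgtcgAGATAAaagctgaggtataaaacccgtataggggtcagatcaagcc
Mcpt4: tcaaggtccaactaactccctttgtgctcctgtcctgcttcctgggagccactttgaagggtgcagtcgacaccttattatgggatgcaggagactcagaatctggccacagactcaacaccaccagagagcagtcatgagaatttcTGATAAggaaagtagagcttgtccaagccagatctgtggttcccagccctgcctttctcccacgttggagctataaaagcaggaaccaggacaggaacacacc
Ms4a2: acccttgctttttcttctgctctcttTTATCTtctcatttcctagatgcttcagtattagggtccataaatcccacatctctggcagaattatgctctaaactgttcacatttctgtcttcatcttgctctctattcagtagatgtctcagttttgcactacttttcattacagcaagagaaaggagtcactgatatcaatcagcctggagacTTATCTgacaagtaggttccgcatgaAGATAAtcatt
Fcer1a: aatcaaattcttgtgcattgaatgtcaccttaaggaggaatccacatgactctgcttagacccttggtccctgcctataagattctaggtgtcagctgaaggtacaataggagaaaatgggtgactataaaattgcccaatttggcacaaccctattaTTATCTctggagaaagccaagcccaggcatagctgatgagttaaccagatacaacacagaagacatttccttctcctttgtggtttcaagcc
The Cpa3 and Mcpt4 windows each held 1 match, of AGATAA in Cpa3 and of TGATAA in Mcpt4. Ms4a2 held 3 matches and Fcer1a 1. A match is a run of letters and shows no binding.

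Mettl3 itself had 121 fragments in Cre 1 and 158 in Cre 2, against 195 in control 1 and 49 in control 2, overlapping groups (edgeR log2 estimate 0.28, SE 1.16, adjusted p = 0.9998). Summed over all its exons, in a mixture of cells, this does not check the deletion.

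Fragments of the mast cell genes were present in every library, at a small share of all counted fragments. The 10 genes held 904 fragments in Cre 1, 2255 in Cre 2, 1523 in control 1 and 1000 in control 2, of 4316904, 4353365, 4537006 and 3614418 counted fragments in the same libraries. The shares were 0.0209% in Cre 1 (exact binomial 95% interval 0.0196 to 0.0224), 0.0518% in Cre 2 (0.0497 to 0.0540), 0.0336% in control 1 (0.0319 to 0.0353) and 0.0277% in control 2 (0.0260 to 0.0294). No molecular identifiers are described, so these intervals cover counting error only. As CPM, the count scaled to library size with TMM factors and the unit of levels from here on, the summed level was 223.0 in Cre 1 and 526.9 in Cre 2, against 328.6 in control 1 and 260.9 in control 2. The Cre libraries thus held both the lowest and the highest sum, and averaged 374.9 ± 214.9 CPM, against 294.8 ± 47.9 CPM in controls (SD, n = 2 each). The ratio of these means was 1.27, and it was 0.792 without Cre 2.

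**Figure D1:**
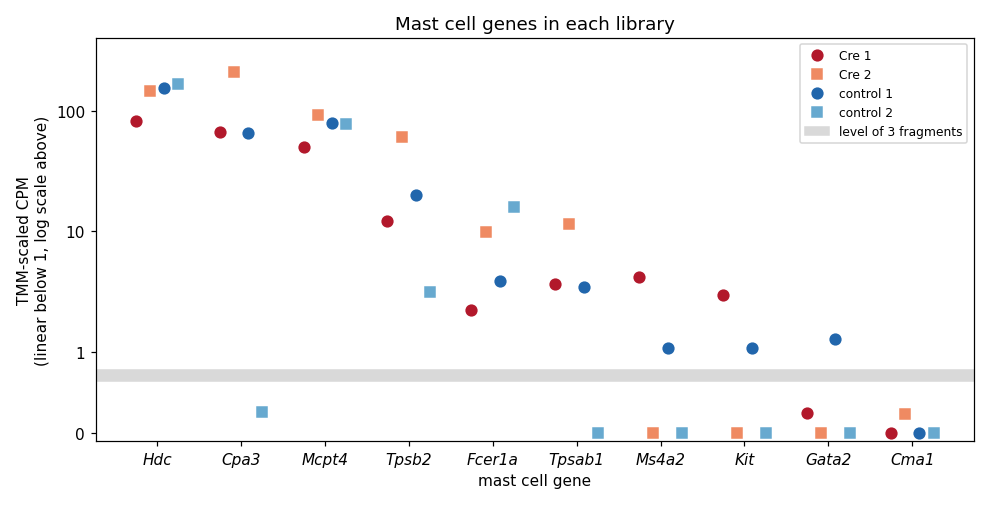
TMM-scaled CPM (y axis, linear below 1 and logarithmic above) of the 10 mast cell genes (x axis, by mean level) in the 4 libraries, 1 point each, with the grey band at the level of 3 fragments. Hdc and Mcpt4 differ 2.02-fold and 1.83-fold between the highest and the lowest library, while Cpa3 lies at 208.4 CPM in Cre 2 and at 0.261 CPM in control 2.

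No gene passed the threshold between the genotypes (edgeR quasi-likelihood test, adjusted p under 0.05), and so none of the 10 did. The background was 0% of 12434 genes tested, with 187 genes at an unadjusted p under 0.05, and the adjusted p of each member tested was 0.9998. DESeq2 called 17 genes (0.137%) and limma-voom 0, with none of the 10 among them. Of the 10 members, 6 had enough fragments to be tested, and Cma1, Kit, Ms4a2 and Gata2 did not. Of the 6, 3 had a positive and 3 a negative log2 fold change (negative for 43.1% of all genes tested), and their median was 0.75, against a median of 0.20 over all genes tested. With 2 libraries a group, an exact permutation test of a single value cannot go below p = 0.333.

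Hdc, the histidine decarboxylase that makes histamine, had the highest mean level in CPM over the 4 libraries, while in the Cre libraries alone Cpa3 averaged more. It had 330 fragments in Cre 1 and 622 in Cre 2, against 713 in control 1 and 631 in control 2, or 81.4 and 145.3 CPM against 153.9 and 164.6 CPM. Both Cre libraries lay below both controls, and Cre 1 was the lowest. This order held for 1 of the 6 members and for 11.2% of all genes tested. The group levels were 113.4 ± 45.2 CPM in Cre libraries and 159.2 ± 7.62 CPM in controls (SD, n = 2 each). On the log2 scale the edgeR estimate was -0.49 (standard error, SE, 0.66, adjusted p = 0.9998). The difference was -0.09 on the log2 scale without Cre 1. Hdc lies on GRCm38 chromosome 2 (126593667 to 126619299, minus strand), and a coding exon entry of 1020 bases at its 3′ end held 79.4% of its fragments in Cre 1, 97.7% in Cre 2, 90.6% in control 1 and 96.2% in control 2. Entries given to retained-intron transcripts alone held 66 fragments in Cre 1 (20% of the gene), 14 in Cre 2, 64 in control 1 and 24 in control 2, and without them the log2 fold change was -0.44. Hdc is not limited to mast cells, being known also from basophils and neutrophils. The neutrophil genes S100a8 and Mmp8 were at 42.4 and 1510 CPM in Cre 1 and 73.1 and 635.3 CPM in Cre 2, against 11.4 and 338.8 CPM in control 1 and 19.0 and 228.8 CPM in control 2. Both lay above the controls in both Cre libraries, an order found for 19.5% of all genes tested and the other way from Hdc. Mmp9, the other tested marker of 7, at 2.47 and 0.234 CPM against 12.7 and 0 CPM, did not. The part of neutrophils in the level of Hdc was not tested.

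Mcpt4, a chymase of connective tissue mast cells with chymotrypsin-like activity, varied least among the libraries. It had 202 fragments in Cre 1 and 390 in Cre 2, against 363 in control 1 and 295 in control 2. These are 49.8 and 91.1 CPM in the Cre libraries and 78.3 and 77.0 CPM in controls. The control values lay between those of the Cre libraries, and the highest library exceeded the lowest 1.83-fold, compared with 2.02-fold for Hdc. The group levels were 70.5 ± 29.2 CPM in Cre libraries and 77.6 ± 0.965 CPM in controls (SD, n = 2 each). The log2 estimate of -0.14 (SE 0.79) became 0.27 without Cre 1. The gene (chromosome 14, 56059629 to 56062313, minus strand) had fragments in each of its 5 exons in every library. The last exon, of 472 bases, held 46.0% of them in Cre 1, 53.1% in Cre 2, 49.6% in control 1 and 47.1% in control 2. The Mcpt4 signal of control 2 was thus spread over the exons much as in the other libraries.

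Cpa3, the carboxypeptidase A that shares the granules with chymase, set control 2 apart from the other libraries. It had 269 fragments in Cre 1 and 892 in Cre 2, against 304 in control 1 and 1 in control 2. The levels were 66.4 and 208.4 CPM in the Cre libraries and 65.6 and 0.261 CPM in controls, so Cre 1 and control 1 were alike. Both Cre libraries lay above both controls, as for 2 of the 6 members and 19.5% of all genes tested, but Cre 1 exceeded control 1 by less than 1 CPM. The edgeR estimate on the log2 scale was 2.06 (SE 1.99, adjusted p = 0.9998). It was 1.06 without control 2 and 1.03 without Cre 2, 8.94 against control 2 alone, where the base is 1 fragment (adjusted p = 0.054), and 4.34 with the presence of Y-linked transcripts as a term. In Cre 1, Cre 2 and control 1, fragments lay in at least 7 of the exons of the gene (chromosome 3, 20215620 to 20242181, minus strand), and the last exon, of 373 bases, held 42.4%, 46.1% and 45.4% of them.

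Set against Mcpt4 within the same library, Cpa3 took very different proportions. The ratio of Cpa3 to Mcpt4 fragments was 1.33 in Cre 1 (exact binomial 95% interval 1.11 to 1.61), 2.29 in Cre 2 (2.03 to 2.58), 0.837 in control 1 (0.717 to 0.978) and 0.00339 in control 2 (8.55e-05 to 0.0190). These intervals cover counting error within a library, not the spread between libraries, and every pair of libraries differed beyond counting error over all genes. The ratio of Hdc to Mcpt4 was 1.63 in Cre 1 (1.37 to 1.96), 1.59 in Cre 2 (1.40 to 1.81), 1.96 in control 1 (1.73 to 2.23) and 2.14 in control 2 (1.86 to 2.46). The ratio of Hdc to Mcpt4 thus spanned a narrower range than that of Cpa3 to Mcpt4. Control 2 also had at most 1 fragment for 35.6% of all genes tested, so counts at or near 0 were common there. It was the lowest library for 3 of the 6 members and for 51.6% of all genes tested.

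**Figure D2:**
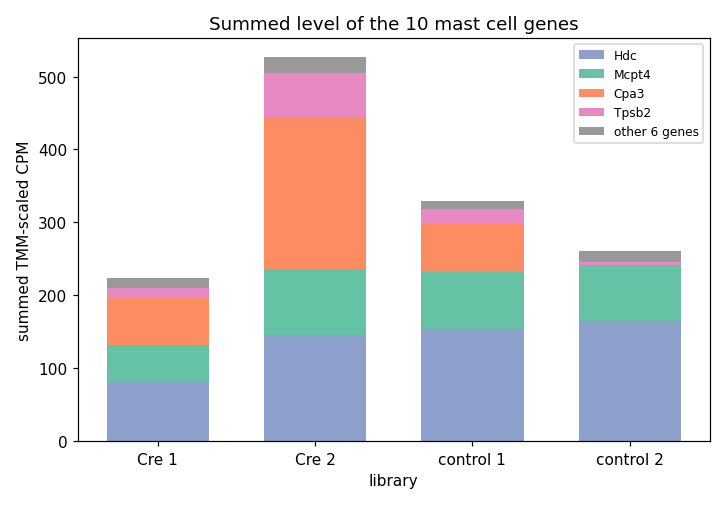
Summed TMM-scaled CPM of the 10 mast cell genes (y axis, from 0) in each library (x axis), with the parts of Hdc, Mcpt4, Cpa3, Tpsb2 and the other 6 genes stacked. Cpa3 makes up 39.6% of the sum in Cre 2 and 0.1% in control 2, where Hdc makes up 63.1%.

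Both tryptases, like Cpa3, were highest in Cre 2 and lowest in control 2. Cre 2 was the highest library for 4 of the 6 members and for 23.6% of all genes tested. Tpsb2 (chromosome 17, 25366305 to 25369098, plus strand), a tryptase bound to heparin in the granule, had 49 fragments in Cre 1 and 259 in Cre 2, against 93 in control 1 and 12 in control 2. The levels were 12.1 and 60.5 CPM in the Cre libraries and 20.1 and 3.13 CPM in controls, so the groups overlapped, with Cre 2 highest and control 2 lowest. The edgeR estimate on the log2 scale was 1.64 (SE 1.56), and it was 0.09 without Cre 2, 0.84 without control 2 and 3.58 without control 1. Its ratio to Mcpt4 fragments was 0.243 in Cre 1, 0.664 in Cre 2, 0.256 in control 1 and 0.0407 in control 2 (0.0208 to 0.0721). In control 2, Tpsb2 thus had 12 fragments where Cpa3 had 1. Tpsab1 (chromosome 17, 25343245 to 25345562, minus strand), the neighbouring tryptase, had 15 and 49 fragments in Cre 1 and Cre 2, against 16 and 0 in control 1 and control 2. At 3.70 and 11.4 CPM in the Cre libraries and 3.45 and 0 CPM in controls, its log2 estimate was 2.11 (SE 2.43), and 1.12 without control 2.

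The counts of the high-affinity IgE receptor differed in pattern between its alpha and beta chains. This contrast rests on 172 countable bases of Fcer1a and on 22 fragments in all of Ms4a2, which was not tested. Fcer1a, the alpha chain that binds IgE, had 9 fragments in Cre 1 and 42 in Cre 2, against 18 in control 1 and 61 in control 2. The levels were 2.22 and 9.81 CPM in the Cre libraries and 3.88 and 15.9 CPM in controls, which overlap, and control 2, with hardly any Cpa3, was the highest. The log2 fold change of -0.71 (standard error 1.77) became 0.62 without control 2 and 0.07 without Cre 1. The gene (chromosome 1, 173221284 to 173227214, minus strand) had fragments in 3 exon entries, and the first exon, of 88 bases with 20 countable, held 18 fragments in control 2, against 1 in Cre 1 and 0 in Cre 2 and control 1. Ms4a2, the beta chain that amplifies the receptor's signal (chromosome 19, 11615523 to 11623719), had 17 fragments in Cre 1 and 0 in Cre 2, against 5 in control 1 and 0 in control 2. At 0 in Cre 2 and control 2, its level there was not detectable below 0.701 and 0.783 CPM, the level of 3 fragments.

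Kit and Gata2, the receptor and the transcription factor of the lineage, had at most 12 fragments in any library. Kit (chromosome 5, 75574916 to 75656722) had 12 fragments in Cre 1 and 0 in Cre 2, against 5 in control 1 and 0 in control 2, and all 17 lay in entries of retained-intron transcripts. Of its 3355 countable bases, coding entries kept only 39 at the first exon and 12 in a later one. The counts therefore say little about spliced Kit RNA, and a count of 0 does not show its absence. Kit is also known from melanocytes. The melanocyte gene Dct was at 22.0 CPM in Cre 1 and 73.4 in Cre 2, against 15.3 in control 1 and 39.9 in control 2. Pmel, the other melanocyte gene tested, was at 45.4 CPM in Cre 1 and 72.9 in Cre 2, against 31.1 in control 1 and 7.04 in control 2. Neither was absent where Kit had no fragment, and the part of melanocytes in the Kit counts was not tested. Gata2 (chromosome 6, 88193891 to 88207032) had 1 fragment in Cre 1 and 0 in Cre 2, against 6 in control 1 and 0 in control 2, all in an exon of 110 bases at its 5′ end. Kit, Ms4a2 and Gata2 thus had fragments in Cre 1 and control 1 and none in Cre 2 and control 2. Cre 2 had the highest level of Cpa3, Mcpt4, Tpsb2 and Tpsab1 at the same time. Cre 1 and control 1 had fragments of 20100 and 19378 genes, against 16273 in Cre 2 and 11424 in control 2, and the part of this difference in the pattern was not tested.

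Per length of countable exon, the order of the members differed between libraries. Cpa3 stood at 55.9 CPM per kb in Cre 1, 175.6 in Cre 2 and 55.3 in control 1, and at 0.220 in control 2. Mcpt4 stood at 45.0, 82.2, 70.7 and 69.5 CPM per kb in the same libraries. Cpa3 was thus above Mcpt4 in both Cre libraries and below it in both controls, although Cpa3 itself was alike in Cre 1 and control 1. How often other pairs of genes show such an order was not counted, so it is no evidence of a genotype effect. Tpsb2 reached 118.0 CPM per kb in Cre 2, and Fcer1a 92.5 in control 2, but these rest on 513 and 172 countable bases. Hdc was between 16.5 and 33.4 CPM per kb, over 4931 countable bases. Of these, 1380 and 1984 lie in entries of retained-intron transcripts, which held 7.32% of its fragments over all libraries. The coding entry with most of its fragments kept 917, so the place of Hdc in this order depends on the bases counted.

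**Figure D3:**
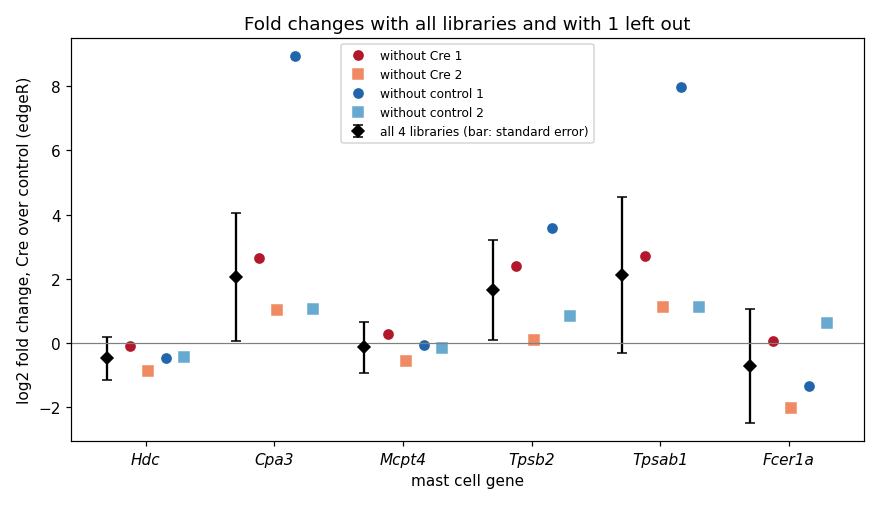
Log2 fold change of Cre over control libraries by edgeR (y axis) for the 6 tested members (x axis), with all libraries (black, bar as standard error) and with each library left out. The values of Cpa3 and Tpsab1 without control 1, at 8.94 and 7.97, compare with a control of 1 and 0 fragments, and those without control 2 are 1.06 and 1.12.

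Other genes of the mast cell, listed by role, gave no call in either direction. Of 9 further granule genes, 2 were tested (1 positive, 1 negative). Srgn, the proteoglycan core on which heparin is built and which most leukocytes make, was at 108.5 CPM in Cre 1 and 58.9 in Cre 2, against 42.3 in control 1 and 14.3 in control 2. Its edgeR estimate on the log2 scale was 1.56 (SE 1.01, adjusted p = 0.9998). Slc18a2, the transporter that loads histamine and other amines into vesicles, was at 20.5 and 2.57 CPM in Cre 1 and Cre 2, against 14.9 and 11.2 CPM in control 1 and control 2. Mcpt1, a chymase of mucosal mast cells, had 54 fragments in Cre 2 and 0 in the other libraries, and was not tested. Of 13 other genes known from skin mast cells, 8 were tested (2 positive, 6 negative, median log2 fold change -0.59). Il1rl1, the interleukin-33 receptor, was at 4.44 and 37.4 CPM in Cre 1 and Cre 2, against 73.4 and 0 CPM in control 1 and control 2, and Hpgds, a prostaglandin D synthase, at 55.0 and 29.4 CPM against 63.9 and 45.1 CPM. Mrgprb1, a receptor of the family of Mrgprb2, had 20 fragments in Cre 1 and 0 in Cre 2, against 24 in control 1 and 0 in control 2, while Mrgprb2, which senses basic peptides on mast cells, had 6 in control 1 and 0 elsewhere. Mrgprb1 was thus counted in the same libraries as Kit and Ms4a2.

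Signalling partners of the IgE receptor, most of them used by many leukocytes, were mostly positive and passed no test. Of 13, 11 were tested, 10 of them positive and 1 negative. Their median was 1.12 on the log2 scale, against 0.20 over all genes, and 3 had both Cre libraries above both controls (19.5% of all genes tested). Plcg2, a phospholipase, was at 506.9 and 178.5 CPM in Cre 1 and Cre 2, against 279.2 and 9.65 CPM in control 1 and control 2. Lcp2, an adaptor protein, was at 203.3 and 134.6 CPM against 152.6 and 0 CPM. Gab2, another adaptor, was at 233.4 and 338.1 CPM against 186.9 and 93.7 CPM in the same order. The list was lowest in control 2, at a summed 136.7 CPM, and 7 of its 13 genes had no fragment there. Of 7 genes for the Kit ligand and for transcription factors, 5 were tested (3 positive, 2 negative, median 0.24). Kitl, the ligand of Kit, was at 49.6 and 198.1 CPM in Cre 1 and Cre 2, against 192.0 and 426.8 CPM in control 1 and control 2. It was highest in control 2, where Kit, hardly countable outside entries of retained-intron transcripts, had no fragment. Mitf, a transcription factor of mast cells and melanocytes, was at 35.8 and 108.6 CPM against 39.3 and 65.5 CPM, and Runx1, one of blood cells, at 150.5 and 116.8 CPM against 109.0 and 116.6 CPM.

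Markers of other cells differed more between the highest and the lowest library than the sum of all 10 mast cell genes did. That narrow range rested on a few genes. Without Hdc, the sum ran from 96.3 CPM in control 2 to 381.6 CPM in Cre 2. Without Hdc, Mcpt4 and Fcer1a, it ran from 3.39 CPM in control 2 to 280.6 CPM in Cre 2. T cell markers summed to 337.7 CPM in Cre 1 and 167.5 in Cre 2, against 1091 in control 1 and 327.4 in control 2, over 15 genes, with 1, 4, 1 and 5 of them at 0. Cd4 had 420 fragments in Cre 1 and 9 in Cre 2, against 777 in control 1 and 0 in control 2, so Cd4 itself was nearly missing in Cre 2 and control 2. Other T cell markers were not. Trac had 140 and 108 fragments in Cre 1 and Cre 2, against 906 and 277 in control 1 and control 2. Trbc2 had 146 and 79 against 871 and 260, and Thy1 90 and 177 against 770 and 263, in the same order. Macrophage and monocyte markers summed to 32783 and 29721 CPM in Cre 1 and Cre 2, against 20881 and 10212 CPM in control 1 and control 2, with none of 12 at 0. Keratinocyte markers summed to 2371 and 1086 CPM against 1627 and 23576 CPM over 9 genes, so control 2, where Cpa3 had 1 fragment, held the most keratinocyte RNA. Fibroblast markers summed to 5533 and 5634 CPM against 11891 and 2553 CPM over 7 genes. The part of these cells in the levels of the mast cell genes was not tested. Basophils share Cpa3, Fcer1a, Ms4a2 and Gata2 with mast cells. Their defining protease Mcpt8 had 0 fragments in all 4 libraries, Prss34 had 1 in Cre 1 and 1 in control 2, and Cd200r3, which mast cells also carry, had 36 in control 1 alone. Mcpt8 kept only 215 countable bases, so its 0 gives little measure of its level. Y-linked transcripts had 0 fragments in Cre 1 and 118 in Cre 2, against 76 in control 1 and 1 in control 2, so they were abundant in 1 library of each genotype. Between the libraries rich in them, Fcer1a was at 9.81 CPM in Cre 2 against 3.88 in control 1, and between the other two at 2.22 CPM in Cre 1 against 15.9 in control 2. For Cpa3, whose Cre libraries both lay above both controls, such pairs add nothing.

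**Figure D4:**
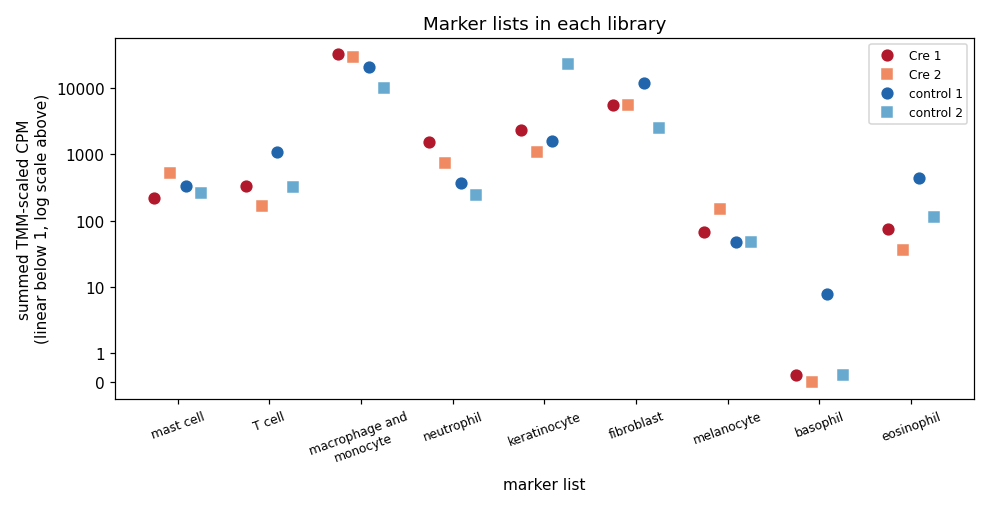
Summed TMM-scaled CPM (y axis, linear below 1 and logarithmic above) of the mast cell genes and of 8 marker lists (x axis) in the 4 libraries. The mast cell sum stays between 223.0 and 526.9 CPM, while keratinocyte markers reach 23576 CPM in control 2 against 1086 to 2371 CPM in the others.

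The genes whose profile over the 4 libraries lay closest to the summed mast cell level were Scand1, Dnal4, Hmgn2, Rps2 and Gadd45a, among 8132 named genes at a mean of at least 5 CPM. Likeness was the Euclidean distance between centred log2(CPM + 1) profiles, from 0.141 for Scand1 to 0.185 for Gadd45a. Scand1 stood at 141.4 and 291.8 CPM in Cre 1 and Cre 2, against 190.3 and 154.2 CPM in control 1 and control 2. With 4 libraries such a match is a description of the order of the sum.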

How the data were processed

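The deposited values are raw fragment counts per exon entry. Per the file headers, they were made with featureCounts 2.0.1 on GRCm38 alignments and the GENCODE M23 annotation, for read pairs mapped at both ends, chimeric pairs left out and strand ignored. The submitters' processing notes name Trim Galore 0.6.7 and STAR 2.7.9a. Fragments overlapping several entries were mostly not counted: entries with no base of their own held 0.127% of fragments. Fragment lengths and duplicate removal are not given in the sources used here.

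Entries were summed per gene and symbols matched for 55154 of 55335 genes. Transcript types came from GENCODE M21, which had 99.7% of the entries. Genotypes were compared with edgeR 4.0.16 (R 4.3.3): genes were kept by filterByExpr (minimum count 10), scaled by TMM and tested by two-sided quasi-likelihood F without covariates, with Benjamini-Hochberg adjustment over 12434 genes at 0.05. Standard errors were derived from the fold change and its F value. The pipeline was tested on simulated data. DESeq2 1.42.0 and limma 3.58.1 (voom) were alternatives, among 12 in all. A count of 0 allows up to 3 fragments, or 0.647 to 0.783 CPM. Every pair of libraries differed beyond sampling noise, at a chi-square of 40.1 to 164.1 per degree of freedom. Libraries were numbered only to name them. The members and lists were chosen with earlier results of these data known. Named genes are the 10 members, of each other list the 3 tested genes with the highest mean CPM, of which some are left out here, and the 5 nearest in profile. Other genes named (Mcpt1, Mrgprb1, Mrgprb2, Cd4, Mcpt8, Prss34, Cd200r3, Tph1, Rab27b, Hrh1, Hrh3, Hrh4, Hnmt, Epx, Prg2, Siglecf and Ear6) were chosen after their values were seen.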

Additional observations from a re-analysis of the deposited data

How the results depend on the processing

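None of the 10 genes was called under any of the 12 alternatives. Over all genes, 27 were called without a low-count filter (8 higher, 19 lower) and 17 by DESeq2 (4 higher, 13 lower), and between 0 and 4 with 1 library left out (2 without Cre 1, 4 without Cre 2); the cause was not tested. Of 71 fold changes of the 6 tested genes under alternatives, 68 kept their direction. The 3 that turned were Mcpt4 without Cre 1 (0.27), and Fcer1a without Cre 1 (0.07) and without control 2 (0.62), where the alternative leaves 3 libraries; with 1 library left out Mcpt4 ranged from -0.57 to 0.27 and Fcer1a from -2.03 to 0.62. The median log2 fold change of the mast cell genes lay between -0.24 and 1.76 with 1 library left out, and was -0.11 at a mean of at least 5 CPM, which removes Tpsab1. The highest value, without control 1, stood beside a median of 1.72 over all genes. The ratio of the summed levels lay between 0.792 and 1.83 with 1 library left out and between 1.25 and 1.35 otherwise. For Tpsab1 the DESeq2 adjusted p was not given by the tool. No paired analysis was possible because the labels give no replicate numbers. Kit, Ms4a2, Gata2 and Cma1 had too few fragments to be tested in the comparison of all 4 libraries; how far depth or the share of countable bases sets this was not tested.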

Other observations

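Histamine receptors and the histamine-degrading enzyme Hnmt were sparsely counted beside Hdc. Hrh2, a histamine receptor of leukocytes, had 88 fragments in Cre 1 and 77 in Cre 2, against 78 in control 1 and 0 in control 2. Hrh1 and Hrh3 had 0 in every library, Hrh4 had 7 in Cre 1 alone, and Hnmt had 1 in Cre 1 and 7 in Cre 2, against 0 in both controls. Hrh4 and Hnmt kept 154 and 218 countable bases, against 4931 for Hdc, so their low counts give little measure of their levels.

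Some genes linked to mast cells were highest in control 2, the library nearly without Cpa3. They are a selection, with Tph1 and Rab27b chosen after their values were seen. Of the 9 further granule genes, 6 had no fragment in control 2, as had 6 of the 13 other genes known from skin mast cells. The share of all genes highest in control 2 was not counted. Tph1, which starts serotonin synthesis, had 2 fragments in Cre 1 and 0 in Cre 2, against 0 in control 1 and 125 in control 2. Maob, an amine oxidase, was at 12.1 and 17.5 CPM in Cre 1 and Cre 2, against 24.4 and 221.5 CPM in control 1 and control 2. Rab27b, a GTPase of granule release, had 14 fragments in Cre 1 and 0 in Cre 2, against 0 in control 1 and 233 in control 2.

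Of 6 eosinophil markers, 2 had enough fragments to be tested, and both had lower values in both Cre libraries than in both controls, an order found for 11.2% of all genes tested. Ear2, an eosinophil-associated ribonuclease also made by macrophages, was at 73.0 and 33.2 CPM in Cre 1 and Cre 2, against 425.1 and 102.8 CPM in control 1 and control 2, and Ccr3, the eotaxin receptor, had 1 and 0 fragments against 62 and 46. Neither passed the test over all genes (edgeR, adjusted p = 0.9998 for both). The other 4 did not share this order. Prg2, a granule protein, had 5 fragments in Cre 1 and 0 in Cre 2, against 0 in control 1 and 1 in control 2. Epx, the eosinophil peroxidase, had 6 in control 1 and 0 elsewhere, while Siglecf had 8 and Ear6 had 2 in Cre 2 and 0 elsewhere. Siglecf and Ear6 kept 177 and 284 countable bases, so their low counts give little measure of their levels.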
